A study of Mus musculus with 12 samples.

Results

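Rap1 adhesion GTPase regulators are described here as 10 genes in CD8+ T cells: the GTPases Rap1a and Rap1b, the exchange factors Rapgef1, Rapgef6 and Rasgrp1, the GTPase-activating proteins Rap1gap2, Sipa1 and Sipa1l1, and the effectors Rassf5 and Apbb1ip. They were chosen by gene symbol, all 10 were found among the 55487 genes of the table, and all 10 passed the filter on low counts, as did 15897 genes in all. Rap1gap2 was picked for its change with TCM in these same libraries, so its levels are given below as a description with no test. The other 9 genes were listed with earlier results of these data known, so their calls describe them and serve as no independent evidence.

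Rap1 is a small GTPase that is active when bound to GTP and inactive when bound to GDP. Exchange factors load it with GTP, and GTPase-activating proteins make it hydrolyse GTP and so switch it off. In T cells, signals from the antigen receptor and from chemokine receptors activate Rap1, which acts through RIAM (the product of Apbb1ip) and RAPL (the product of Rassf5) to raise the adhesiveness of integrins such as LFA-1, the pair of chains encoded by Itgal and Itgb2.

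RNA was sequenced in bulk from CD8+ T cells of C57BL/6 mouse splenocytes in 12 libraries, 3 in each of 4 groups: IL-12 with 80%TCM, IL-12 alone, IL-2 with 80%TCM and IL-2 alone. IL-12 and IL-2 are cytokines that act on T cells, every group received 1 of them, and no group without cytokine was analysed here. The labels do not spell out TCM, although the series title speaks of tumor-like conditions, and they give neither the age of the mice nor the length of the culture. Whether replicates were separate animals or cultures is not stated, so p-values measure the spread between these libraries, which may be technical.

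Library totals were 19.5 to 26 in units of 1e+06 gene counts, but 49.6 and 42.3 for replicates 1 and 2 of IL-12 alone, where counting error is smaller. Replicate 3 of IL-2 with 80%TCM and replicate 3 of IL-2 alone stood apart from the other replicates of their groups: over genes, the chi-square between replicate libraries divided by its degrees of freedom was 28.5 to 45.4 for pairs that hold one of them and 2.4 to 5.51 for all other pairs, where counting error alone gives about 1. The summed level of 7 CD8 T cell markers was 3459 to 4448 CPM (counts per 1e+06 counts), and that of the 2 CD4 T cell markers, Cd4 and Foxp3, 1.05 to 5.96 CPM. Levels below are CPM on scaled library sizes, in the order of replicates 1, 2 and 3. A mean is given ± SD over 3 libraries and a log2 fold change ± its standard error (SE). The SE was worked back from the edgeR quasi-likelihood F statistic, as the size of the log2 fold change over the square root of F. For Rap1gap2 it is part of the description and is not read as a test. A gene was called changed at an edgeR quasi-likelihood p-value below 0.05 after Benjamini-Hochberg adjustment over the 15897 genes.

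**Figure D1:**
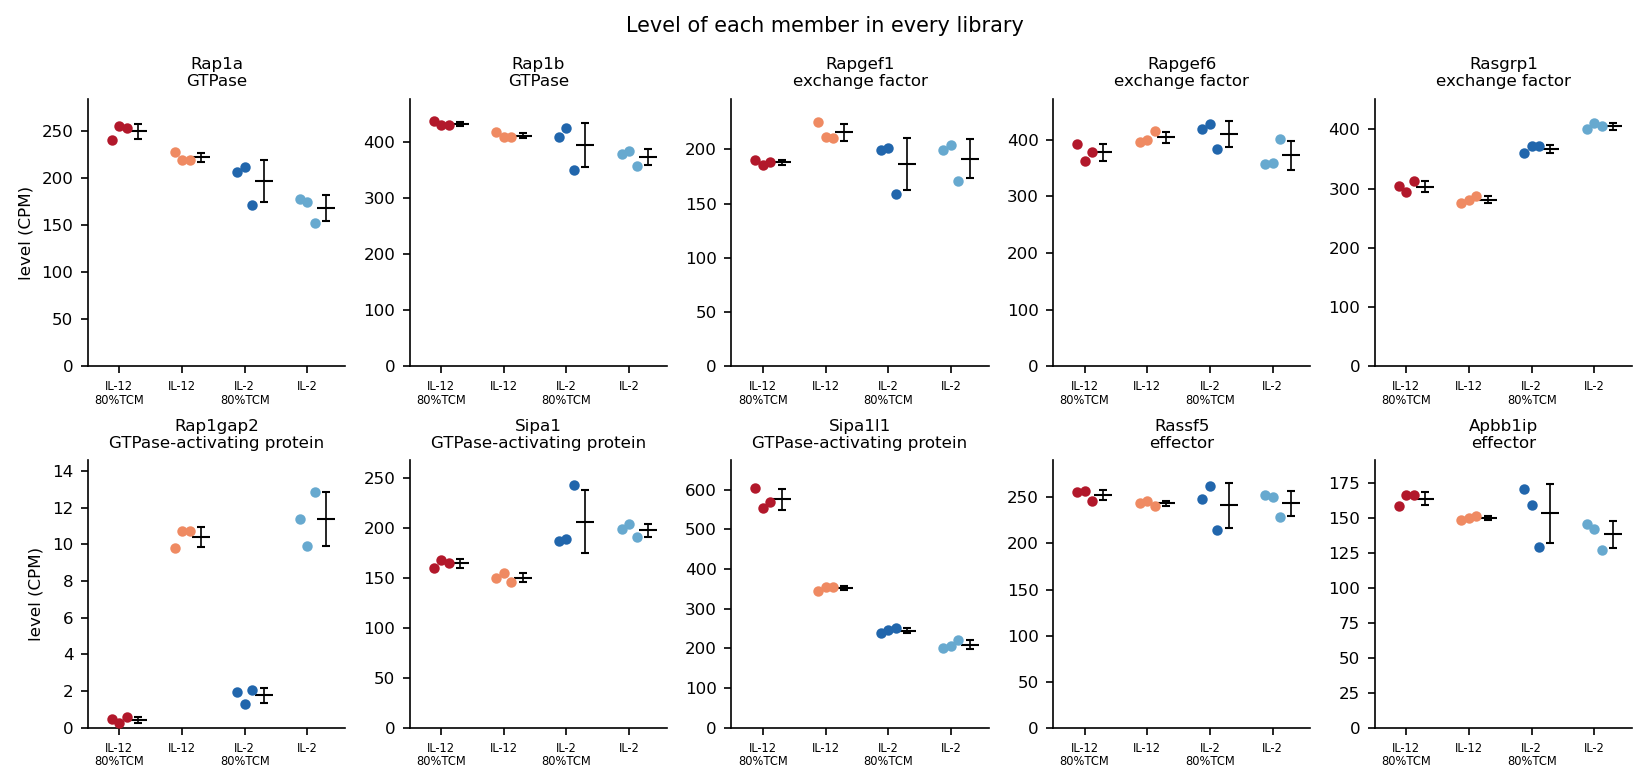
Level of each of the 10 genes in CPM (vertical axis, linear, from 0 in each panel) in the 3 libraries of each group (dots), with the mean and SD. Sipa1l1 is highest in IL-12 with 80%TCM at 553 to 603 CPM, and Rap1gap2 lies at or below 2.09 CPM in all 6 libraries with TCM, against 9.78 CPM or more in the 6 without.

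Rap1gap2 (ENSMUSG00000038807), a GTPase-activating protein of Rap1 known from platelets, was lower in every library with TCM than in any library without it. Its level was 0.479, 0.262 and 0.600 CPM in IL-12 with 80%TCM, from 9, 5 and 12 counts, against 9.78, 10.7 and 10.7 CPM in IL-12 alone, from 458, 429 and 213 counts. In IL-2 it was 1.93, 1.30 and 2.09 CPM with 80%TCM, from 40, 35 and 53 counts, against 11.4, 9.93 and 12.9 CPM in IL-2 alone, from 259, 245 and 297 counts. Among libraries with TCM, the 3 libraries of IL-12 with 80%TCM were below the 3 of IL-2 with 80%TCM. In bulk RNA, fewer cells that hold a transcript and less of it per cell cannot be told apart.

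The mean level of Rap1gap2 was 0.447 ± 0.171 CPM in IL-12 with 80%TCM and 10.4 ± 0.551 CPM in IL-12 alone, a 23.3-fold lower level, with a fitted log2 fold change of -4.50 ± 0.24 (SE). With IL-2 it was 1.77 ± 0.420 CPM with 80%TCM and 11.4 ± 1.47 CPM without, 6.42-fold lower, with a log2 fold change of -2.70 ± 0.19. Without TCM the cytokine groups overlapped, and IL-12 against IL-2 gave a log2 fold change of -0.15 ± 0.16. With 80%TCM the IL-12 group was 3.97-fold lower than the IL-2 group, at a log2 fold change of -1.96 ± 0.29. The log2 fold change of TCM in IL-12 minus that in IL-2 was -1.81 ± 0.33, and it rests on the few counts in IL-12 with 80%TCM: without replicate 2 or replicate 3 of that group the log2 fold change of TCM in IL-12 was -4.25 or -4.79.

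Since Rap1gap2 is known from platelets, 8 platelet and megakaryocyte markers were set beside it (Ppbp, Pf4, Itga2b, Gp9, Gp1ba, Gp1bb, Treml1 and Clec1b). Gp1bb was at 0 in all 12 libraries, and 7 were tested. Their summed level was 28.9 to 35.4 CPM in IL-12 with 80%TCM and 63.6 to 75.4 CPM in IL-12 alone, a 2.14-fold lower mean, with 5 of 7 called lower. It was 49.2 to 60.8 CPM in IL-2 with 80%TCM and 112 to 137 CPM in IL-2 alone, a 2.25-fold lower mean, with 6 of 7 called lower. The sum was lower with TCM, as Rap1gap2 was, but by a smaller ratio. Of the single markers Gp1ba went the other way in IL-12, at 5.02 ± 0.472 CPM with 80%TCM against 3.69 ± 0.934 CPM without, and was not called. Without TCM the sum was 1.78-fold lower in IL-12 than in IL-2, and Rap1gap2 was 1.09-fold lower. Their part in the level of Rap1gap2 was not tested.

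**Figure D2:**
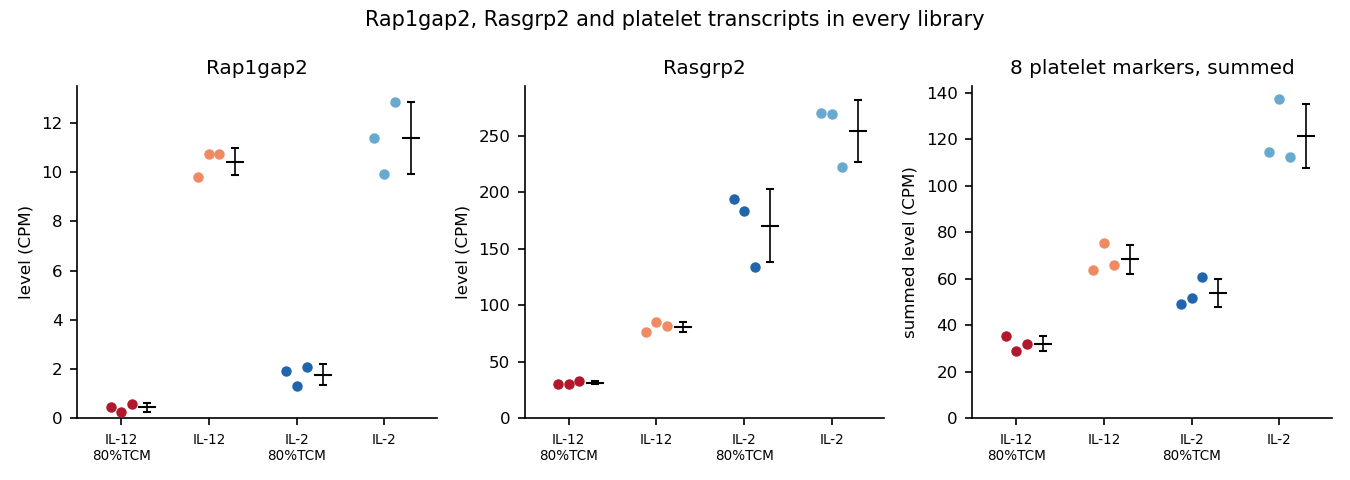
Levels in CPM (vertical axes, linear) of Rap1gap2, of Rasgrp2 and of 8 platelet markers summed, in the 3 libraries of each group (dots) with mean and SD. Rap1gap2 separates libraries by TCM, Rasgrp2 is 30.6 to 33.4 CPM in IL-12 with 80%TCM against 223 to 270 CPM in IL-2 alone, and the platelet sum is lowest, at 28.9 to 35.4 CPM, in IL-12 with 80%TCM.

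RefSeq places 4 start sites of Rap1gap2 on the minus strand of mouse chromosome 11, and gene counts do not tell them apart. The window at the most upstream of them, 250 bases before to 50 bases after the start, is shown because this gene has the widest relative range of levels among the 10. It lies at chr11:74610866-74611165 on the minus strand of GRCm38.p6 and has 71.3% GC.
Rap1gap2 promoter: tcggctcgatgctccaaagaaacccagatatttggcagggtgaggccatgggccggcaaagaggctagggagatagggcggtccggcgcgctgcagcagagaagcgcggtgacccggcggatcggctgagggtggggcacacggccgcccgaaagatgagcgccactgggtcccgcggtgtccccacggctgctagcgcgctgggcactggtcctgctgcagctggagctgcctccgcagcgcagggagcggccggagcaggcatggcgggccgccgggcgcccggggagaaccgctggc
Neither the STAT motif TTCNNNGAA nor the AP-1 motif TGANTCA, searched on both strands, occurs in any of its 4 windows. These motifs occur in 8.30% and 7.81% of the 32851 mouse windows of that length, so a window without them is the usual case.

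Genes with a pattern like that of Rap1gap2 were sought among 9822 tested genes that averaged 5 CPM or more in 1 group. Unnamed gene models were left out of these. The most alike were Prdm10, Golm1, Crmp1, Dhrs4 and Rab3gap1. Their Pearson correlations of log2(CPM + 1) over the 12 libraries were 0.984, 0.983, 0.980, 0.980 and 0.977. Libraries of a group share their condition and scaling, so these values describe likeness only. Crmp1 averaged 7.26 ± 0.389 CPM in IL-12 with 80%TCM, 22.3 ± 1.28 CPM in IL-12 alone, 10.9 ± 1.41 CPM in IL-2 with 80%TCM and 27.5 ± 2.42 CPM in IL-2 alone. Golm1 averaged 28.8 ± 2.87, 52.7 ± 1.91, 34.4 ± 0.867 and 59.0 ± 2.36 CPM in the same groups. These genes shared the order of the groups within each cytokine but not the size of the drop: Prdm10 averaged 19.5 ± 0.203 CPM in IL-12 with 80%TCM and 29.6 ± 1.01 CPM in IL-12 alone.

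Sipa1l1 (ENSMUSG00000042700), a GTPase-activating protein of Rap proteins best known from neurons as SPAR, was higher with TCM and higher in IL-12. It had 603, 553 and 570 CPM in IL-12 with 80%TCM, against 346, 355 and 355 CPM in IL-12 alone. In IL-2 it had 238, 245 and 251 CPM with 80%TCM, against 201, 206 and 222 CPM without. The ranges of the 4 groups did not overlap, and the order was IL-12 with 80%TCM, IL-12, IL-2 with 80%TCM and IL-2.

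Sipa1l1 rose with TCM in IL-12, where its mean was 1.64-fold higher (log2 fold change 0.73 ± 0.06, adjusted p = 4.9e-06 in edgeR), and in IL-2, where it was 1.17-fold higher (0.22 ± 0.06, adjusted p = 0.022). Its TCM effect was larger in IL-12 than in IL-2, by 0.51 ± 0.08 on the log2 scale (adjusted p = 0.0072 in edgeR). IL-12 against IL-2 gave 1.68-fold without TCM (0.72 ± 0.06, adjusted p = 4.1e-07) and 2.35-fold with TCM (1.23 ± 0.06, adjusted p = 1.8e-09). The call for TCM within IL-2 did not hold on leaving out replicate 1 or 2 of IL-2 alone (adjusted p = 0.070 and 0.065 in edgeR), or when only the 2 groups were fitted (0.11).

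Sipa1 (ENSMUSG00000056917), also called SPA-1, is the GTPase-activating protein of Rap1 that is abundant in lymphocytes, and it differed with the cytokine in the other direction. Its level was 160, 168 and 165 CPM in IL-12 with 80%TCM, against 187, 189 and 243 CPM in IL-2 with 80%TCM. Without TCM it was 150, 155 and 146 CPM in IL-12, against 199, 204 and 191 CPM in IL-2. All 6 IL-12 libraries lay below all 6 IL-2 libraries, and replicate 3 of IL-2 with 80%TCM was the highest of all.

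Sipa1 fell in IL-12 against IL-2 without TCM, with a 1.32-fold lower mean (log2 fold change -0.42 ± 0.08, adjusted p = 0.0012 in edgeR), and with TCM, 1.25-fold lower (-0.33 ± 0.08, adjusted p = 0.0072). TCM gave 0.15 ± 0.08 in IL-12 (adjusted p = 0.21 in edgeR) and 0.06 ± 0.08 in IL-2 (adjusted p = 0.70). Leaving out replicate 3 of IL-2 with 80%TCM brought the first of these to an adjusted p of 0.024 and turned the second to -0.07. Of the 3 GTPase-activating proteins, then, Rap1gap2 was at its lowest and Sipa1l1 at its highest in IL-12 with 80%TCM.

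The upstream window of Sipa1l1 is shown because this gene changed in all 4 pairwise comparisons. It lies at chr12:82169766-82170065 on the plus strand of GRCm38.p6, has 75.7% GC and holds neither motif, nor does the window at its other RefSeq start.
Sipa1l1 promoter: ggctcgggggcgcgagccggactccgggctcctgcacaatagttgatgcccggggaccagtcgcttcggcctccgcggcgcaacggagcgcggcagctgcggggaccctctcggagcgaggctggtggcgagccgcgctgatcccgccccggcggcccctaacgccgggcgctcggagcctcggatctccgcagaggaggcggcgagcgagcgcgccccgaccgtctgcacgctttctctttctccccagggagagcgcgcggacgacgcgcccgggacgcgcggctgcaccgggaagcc

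Rasgrp1 (ENSMUSG00000027347) is an exchange factor that binds diacylglycerol below the T cell receptor and acts mainly on Ras. It had 303, 294 and 313 CPM in IL-12 with 80%TCM, against 359, 371 and 371 CPM in IL-2 with 80%TCM. It had 275, 281 and 287 CPM in IL-12 alone, against 400, 411 and 405 CPM in IL-2 alone. The 4 groups did not overlap, and TCM went with a level nearer to that of the other cytokine in both.

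Rasgrp1 fell in IL-12 against IL-2 without TCM, 1.44-fold (log2 fold change -0.55 ± 0.04, adjusted p = 5.5e-07 in edgeR), and with TCM, 1.21-fold (-0.28 ± 0.04, adjusted p = 0.00028). With TCM it was 7.99% higher in IL-12 (0.13 ± 0.04, adjusted p = 0.048 in edgeR) and 1.10-fold lower in IL-2 (-0.15 ± 0.04, adjusted p = 0.041), a difference between the TCM effects of 0.27 ± 0.06 (adjusted p = 0.0487). Both TCM calls were lost when any 1 of the 12 libraries was left out, with adjusted p from 0.0505 to 0.14 in IL-2 and from 0.054 to 0.24 in IL-12 in edgeR. That of the difference was lost on leaving out any library but replicate 3 of IL-2 with 80%TCM (adjusted p = 0.025 without it, 0.077 to 0.20 without another).

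The promoter window of Rasgrp1 is shown because it alone, of 13 windows of the 9 genes found in the RefSeq table, holds the STAT motif TTCNNNGAA, the general form of the sites bound by STAT proteins. Of all mouse windows of that length 8.30% hold it, so that 1 in 13 is near the usual share. It lies at chr2:117342828-117343127 on the minus strand of GRCm38.p6, the capitals mark the motif, which begins 120 bases before the start (position -120), and no window of the 13 holds the AP-1 motif TGANTCA.
Rasgrp1 promoter: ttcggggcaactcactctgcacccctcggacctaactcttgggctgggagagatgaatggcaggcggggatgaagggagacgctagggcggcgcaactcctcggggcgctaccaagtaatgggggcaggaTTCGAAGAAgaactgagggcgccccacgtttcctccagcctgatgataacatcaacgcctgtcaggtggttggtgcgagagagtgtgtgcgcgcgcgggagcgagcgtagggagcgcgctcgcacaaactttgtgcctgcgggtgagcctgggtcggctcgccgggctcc
The match is to letters only, and whether a factor binds there was not measured.

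Rapgef1 (ENSMUSG00000039844) is an exchange factor brought to membranes by Crk adaptors, and it was not called in any comparison. It had 190, 186 and 188 CPM in IL-12 with 80%TCM, 225, 211 and 211 CPM in IL-12 alone, 199, 201 and 159 CPM in IL-2 with 80%TCM and 200, 204 and 171 CPM in IL-2 alone. Its IL-12 groups did not overlap (log2 fold change of TCM -0.18 ± 0.08, adjusted p = 0.11 in edgeR), and replicate 3 was the lowest in both IL-2 groups. A replicate block within the IL-2 groups, which takes out that shared deviation, gave adjusted p = 0.0027 for TCM in IL-12 and 0.0064 for IL-12 against IL-2 without TCM, where the unblocked value was 0.15. Without replicate 3 of IL-2 with 80%TCM those were 0.020 and 0.040. The block raised the share called among all genes too. It was 42.0% for TCM in IL-12, against 29.0% without the block, and 27.9% against 14.5% for TCM in IL-2. For IL-12 against IL-2 it was 56.0% against 45.1% without TCM, and 49.0% against 39.0% with TCM.

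Rapgef6 (ENSMUSG00000037533), an exchange factor with a PDZ domain, was not called either, with means of 378 ± 15.3 CPM in IL-12 with 80%TCM, 404 ± 10.3 CPM in IL-12 alone, 410 ± 22.7 CPM in IL-2 with 80%TCM and 373 ± 25.3 CPM in IL-2 alone. In IL-2 alone, replicate 3 was the highest at 402 CPM, against 358 and 359 CPM in the other two. Without that library TCM in IL-2 gave a log2 fold change of 0.20 (adjusted p = 0.037 in edgeR) and IL-12 against IL-2 without TCM 0.16 (adjusted p = 0.047). Without replicate 3 of IL-2 with 80%TCM, IL-12 against IL-2 with TCM gave -0.17 (adjusted p = 0.040).

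Rap1a (ENSMUSG00000068798) and Rap1b (ENSMUSG00000052681) encode the GTPases themselves. Rap1a had 240, 255 and 252 CPM in IL-12 with 80%TCM, against 207, 211 and 171 CPM in IL-2 with 80%TCM. It had 227, 219 and 219 CPM in IL-12 alone, against 177, 174 and 152 CPM in IL-2 alone. All IL-12 libraries were above all IL-2 libraries, and the IL-2 groups with and without TCM overlapped.

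Rap1a rose in IL-12 against IL-2, 1.32-fold without TCM (log2 fold change 0.38 ± 0.07, adjusted p = 0.00091 in edgeR) and 1.27-fold with TCM (0.35 ± 0.07, adjusted p = 0.0020). For TCM it was not called in IL-12 (0.19 ± 0.07, adjusted p = 0.072 in edgeR) or in IL-2 (0.22 ± 0.07, adjusted p = 0.060). With the replicate block in the IL-2 groups those 2 values were 0.0019 and 0.00091, and without replicate 3 of IL-2 with 80%TCM 0.023 and 0.0034. Of the 50-base stretches in its exons, 8.27% also occur in other annotated genes, first the gene model Gm9392, so that some of its reads may be shared.

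Rap1b had 438, 432 and 431 CPM in IL-12 with 80%TCM, 418, 410 and 409 CPM in IL-12 alone, 411, 426 and 350 CPM in IL-2 with 80%TCM and 379, 385 and 357 CPM in IL-2 alone. No comparison called it, and its log2 fold change was highest for IL-12 against IL-2 with TCM, at 0.13 ± 0.06 (adjusted p = 0.094 in edgeR), and 0.12 ± 0.06 without TCM (adjusted p = 0.12). With the replicate block in the IL-2 groups those 2 values were 0.016 and 0.031. Without replicate 3 of IL-2 with 80%TCM, IL-12 against IL-2 without TCM had adjusted p = 0.027 and TCM in IL-2 0.041, against 0.47 with all libraries.

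Neither effector was called in any comparison. Rassf5 (ENSMUSG00000026430) averaged 253 ± 5.62 CPM in IL-12 with 80%TCM, 244 ± 2.57 CPM in IL-12 alone, 241 ± 24.6 CPM in IL-2 with 80%TCM and 244 ± 13.5 CPM in IL-2 alone. Its log2 fold changes lay from -0.02 to 0.07, each with an SE of 0.06, and the sign of 3 of them depends on the libraries or the scale used. Apbb1ip (ENSMUSG00000026786) had 159, 167 and 167 CPM in IL-12 with 80%TCM, 149, 150 and 152 CPM in IL-12 alone, 171, 160 and 130 CPM in IL-2 with 80%TCM and 146, 142 and 127 CPM in IL-2 alone.

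For Apbb1ip the log2 fold change of TCM was 0.14 ± 0.08 in IL-12 (adjusted p = 0.20 in edgeR) and 0.14 ± 0.08 in IL-2 (adjusted p = 0.27). The IL-12 groups did not overlap, while replicate 3 was the lowest in each IL-2 group. With the replicate block in the IL-2 groups the adjusted p was 0.018 and 0.037, and without replicate 3 of IL-2 with 80%TCM that of TCM in IL-2 was 0.012.

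**Figure D3:**
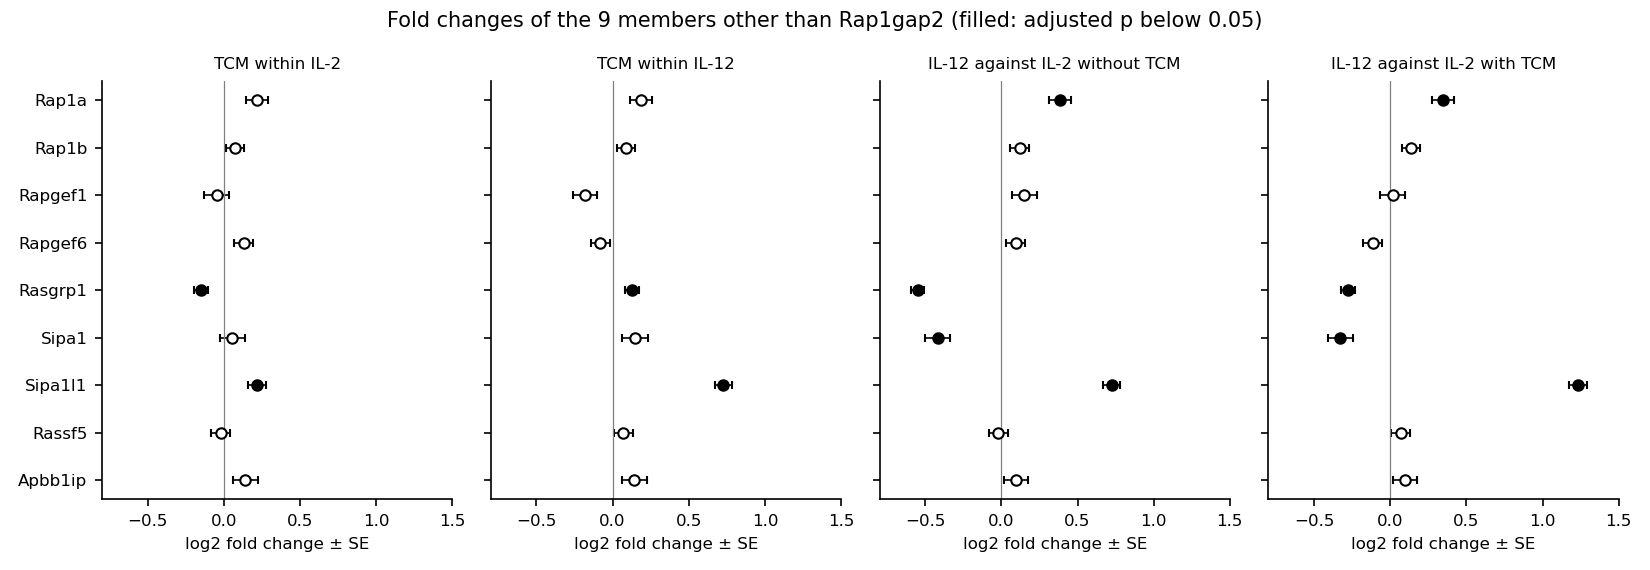
Log2 fold changes with SE (horizontal axis) of the 9 genes other than Rap1gap2 in the 4 pairwise comparisons (panels), filled where the adjusted p was below 0.05. Sipa1l1 is to the right of 0 in every panel, from 0.22 to 1.23, and Rasgrp1 to the left in every panel but that of TCM within IL-12.

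Counted by comparison, TCM within IL-12 called 2 of the 9 genes other than Rap1gap2 (Sipa1l1 and Rasgrp1, both higher), where 29% of all genes tested were called, 14.8% higher and 14.2% lower. TCM within IL-2 called 2 of 9 (Sipa1l1 higher, Rasgrp1 lower) against 14.5% of all genes, 6.73% higher and 7.82% lower. IL-12 against IL-2 called 4 of 9 without TCM against 45.1% of all genes (22.1% higher, 23% lower), and the same 4 of 9 with TCM against 39%, with 19.5% higher and 19.4% lower (Rap1a and Sipa1l1 higher, Rasgrp1 and Sipa1 lower). The difference of the TCM effect called 2 of 9 (Sipa1l1 and Rasgrp1, both higher) against 1.58% of all genes, with 1.19% higher and 0.39% lower. In 11 of the 12 fits that leave out 1 library it called 1 of 9, Sipa1l1, against 0.642% to 1.69% of all genes.

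The median log2 fold change of the 9 genes was 0.13 for TCM within IL-12, 0.07 for TCM within IL-2, and 0.10 and 0.07 for the cytokine comparison in the absence and presence of TCM. Those of all genes tested were 0.01, 0.00, -0.01 and -0.01. TCM comparisons and cytokine comparisons share libraries, so their values are not independent of each other. Leaving out replicate 3 of IL-2 alone and of IL-2 with 80%TCM, 6 of 9 were called for TCM within IL-12, 6 for TCM within IL-2, 5 for IL-12 against IL-2 in either condition and 4 for the difference. In that fit 46.0% of all genes were called for TCM within IL-12, 24.7% for TCM within IL-2, 52.3% and 48.0% for IL-12 against IL-2 without and with TCM and 13.2% for the difference. In 11 of the 12 fits that leave out 1 library TCM within IL-12 called 1 of 9, against 18.0% to 32.1% of all genes. For TCM within IL-2 edgeR called 0 of 9 without replicate 1 or 2 of IL-2 alone, and with only the 2 groups fitted. In those fits 3, 3 and 2 of the 9 had an unadjusted p below 0.05, and 7.95%, 8.83% and 3.81% of all genes were called. DESeq2 called 3 of 9 there with all libraries, against 15.9% of all genes.

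**Figure D4:**
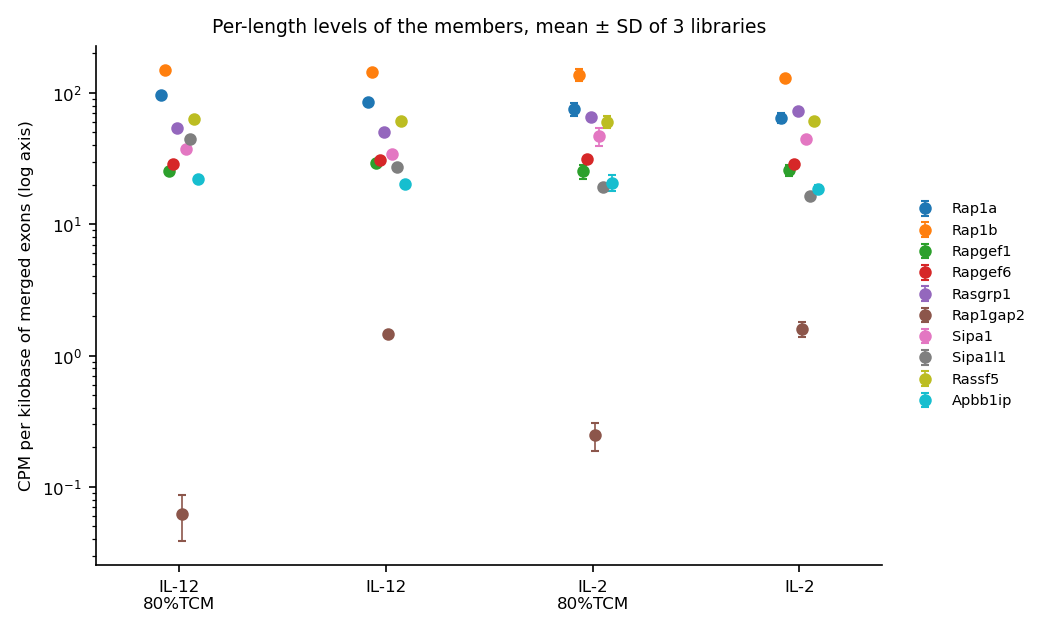
Mean level per kilobase of merged exons (CPM per kilobase, log axis) of the 10 genes (dots, 1 colour per gene) in each group (columns), with SD over 3 libraries. Rap1b is on top in every group at 130 to 150 CPM per kilobase, and Rap1gap2 is at the bottom at 0.062 to 1.59.

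Levels per kilobase of merged exons allow a rough comparison between genes. That length joins the exons of all annotated transcripts, whether used in these cells or not, so a gene with long unused exons may be placed too low. On this scale Rap1b stood first in every group, at 150 ± 1.34 CPM per kilobase in IL-12 with 80%TCM and 130 ± 5.10 in IL-2 alone. Rap1a was second in every group but IL-2 alone, where Rasgrp1 at 72.4 ± 0.997 CPM per kilobase stood before Rap1a at 64.3 ± 5.35. In IL-2 alone, the ranges of Rap1a and Rassf5, of Rapgef6 and Rapgef1, and of Apbb1ip and Sipa1l1 overlapped, so those neighbours are not told apart. In IL-2 with 80%TCM this held for Rap1a and Rasgrp1, for Rasgrp1 and Rassf5, for Rassf5 and Sipa1, for Rapgef1 and Apbb1ip and for Apbb1ip and Sipa1l1, and in IL-12 alone for Rapgef6 and Rapgef1.

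Among the GTPase-activating proteins the order per kilobase depended on the group. Sipa1l1 had 44.9 ± 2.0 CPM per kilobase in IL-12 with 80%TCM, above Sipa1 at 37.2 ± 0.933, while in IL-2 alone Sipa1l1 had 16.4 ± 0.848, below Sipa1 at 44.7 ± 1.45. Sipa1l1 was in place 9 of 10 in both IL-2 groups, place 8 in IL-12 alone and place 5 in IL-12 with 80%TCM. Rap1gap2 was last everywhere, at 0.062 CPM per kilobase in IL-12 with 80%TCM and 1.59 in IL-2 alone.

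The wider pathway was followed with 43 other genes of Rap1 signalling and integrin activation, listed from textbook knowledge with earlier results known. Of these, 39 were tested, and Rasgrp3, Dock4, Rap1gap and Radil did not pass the filter on low counts. Of the 39, TCM within IL-12 called 21 (12 higher, 9 lower), TCM within IL-2 11 (5 higher, 6 lower), IL-12 against IL-2 without TCM 23 (10 higher, 13 lower) and with TCM 20 (12 higher, 8 lower). Those are 53.8%, 28.2%, 59.0% and 51.3% of the list, against 29%, 14.5%, 45.1% and 39% of all genes tested, with no test of the list. Their median log2 fold changes were 0.11, 0.05, -0.08 and -0.04, against 0.01, 0.00, -0.01 and -0.01 for all genes. The calls for TCM within IL-2 numbered 21 with the replicate block in the IL-2 groups and 22 without replicate 3 of both. They numbered 17 without replicate 3 of IL-2 with 80%TCM alone. In those fits 27.9%, 24.7% and 14.9% of all genes were called. The list calls for TCM within IL-12 numbered 13 without replicate 2 of IL-12 with 80%TCM, against 19.3% of all genes.

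**Figure D5:**
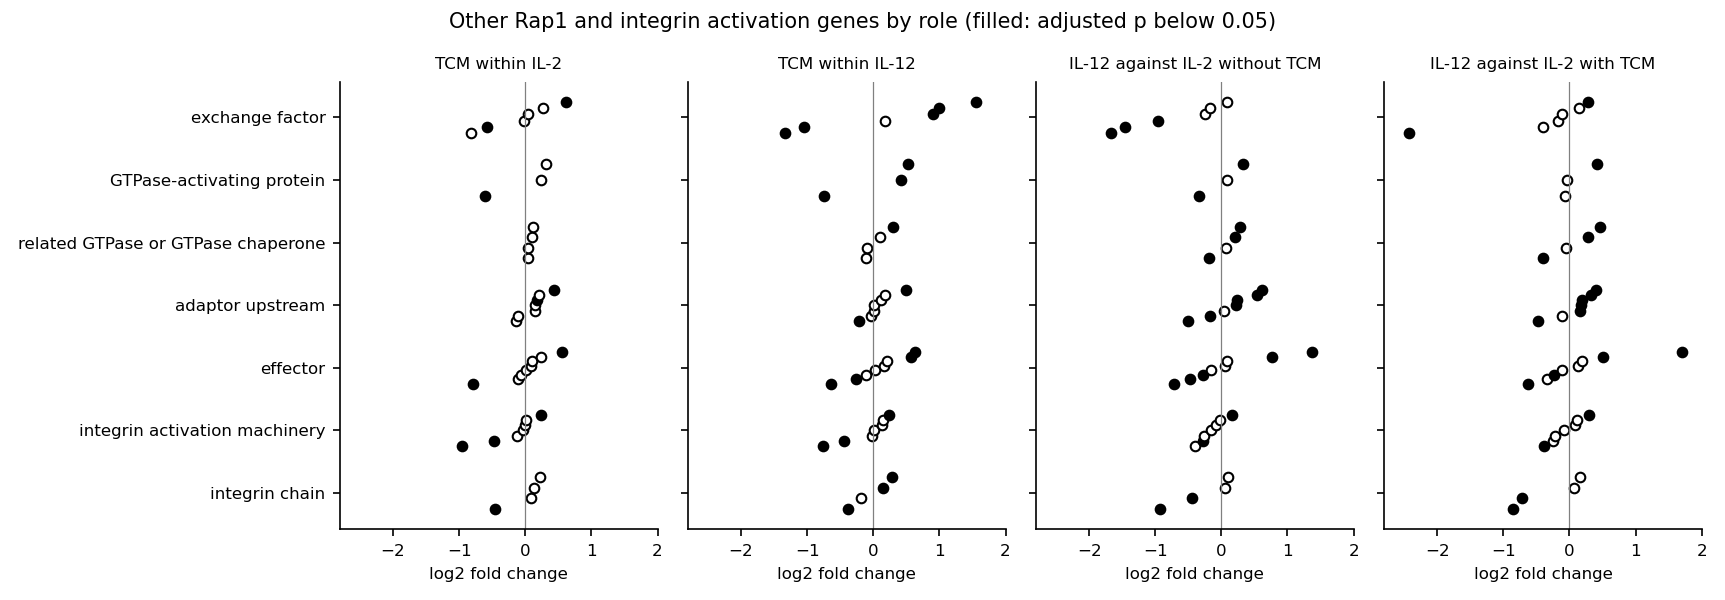
Log2 fold changes (horizontal axis) of the 39 tested genes of the wider pathway in the 4 pairwise comparisons (panels), in rows by role, filled where the adjusted p was below 0.05. Rasgrp2 is the lowest of the exchange factors in the cytokine panels, at -1.67 and -2.43, and Raph1 the highest of the effectors, at 1.38 and 1.70.

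Among exchange factors outside the 10 genes, Rasgrp2, which encodes the calcium- and diacylglycerol-regulated Rap1 activator CalDAG-GEFI of platelets and T cells, changed in all 4 pairwise comparisons. It had 30.7, 30.6 and 33.4 CPM in IL-12 with 80%TCM, against 76.0, 85.3 and 81.4 CPM in IL-12 alone. It had 194, 184 and 134 CPM in IL-2 with 80%TCM, against 270.4, 269.7 and 223 CPM in IL-2 alone. The 4 groups did not overlap, and the level was highest in IL-2 alone and lowest in IL-12 with 80%TCM.

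Rasgrp2 fell with TCM in IL-12, 2.56-fold (log2 fold change -1.34 ± 0.12, adjusted p = 9.5e-06 in edgeR), and in IL-2, 1.49-fold (-0.58 ± 0.11, adjusted p = 0.0042, but 0.063 when only those 2 groups were fitted). In IL-12 against IL-2 it fell 3.14-fold without TCM (-1.67 ± 0.11, adjusted p = 9.5e-08) and 5.41-fold with TCM (-2.43 ± 0.12, adjusted p = 3.2e-09). It was the only one of the 39 called for the difference of the TCM effect (-0.76 ± 0.16, adjusted p = 0.033 in edgeR), against 1.58% of all genes. The replicate block in the IL-2 groups called 8 of the list there, against 10.5% of all genes. Leaving out 1 library called 0 to 4, against 0.642% to 7.19% of all genes. The call of Rasgrp2 for the difference was lost without any 1 library other than replicate 1 of IL-2 alone and replicate 3 of IL-2 with 80%TCM (adjusted p = 0.051 to 0.11). The summed platelet markers were 2.14-fold and 2.25-fold lower with TCM in IL-12 and IL-2 and 1.78-fold and 1.69-fold lower in the IL-12 than in the IL-2 groups without and with TCM, and their part in the level of Rasgrp2 was not tested.

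Rapgef4, which encodes the cyclic AMP-responsive exchange factor Epac2, rose 1.96-fold with TCM in IL-12 (18.3 ± 0.698 against 9.31 ± 1.19 CPM, log2 fold change 1.0 ± 0.12, adjusted p = 9.5e-05 in edgeR). Rapgef2, an exchange factor related to Rapgef6, rose in IL-12 against IL-2 with TCM (42.0 ± 3.08 against 34.4 ± 0.809 CPM, 0.29 ± 0.07, adjusted p = 0.0043). Of the 6 exchange factors tested, TCM within IL-12 called 3 higher and 2 lower, against 14.8% and 14.2% of all genes.

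Rasa3, a GTPase-activating protein for Ras and Rap1, fell with TCM in both cytokines. It had 194, 210 and 196 CPM in IL-12 with 80%TCM, against 327, 344 and 351 CPM in IL-12 alone (log2 fold change -0.75 ± 0.06, adjusted p = 4.9e-06 in edgeR). It had 222, 205 and 200 CPM in IL-2 with 80%TCM, against 339, 303 and 307 CPM in IL-2 alone (-0.60 ± 0.06, adjusted p = 6.3e-05). Sipa1l3, a relative of Sipa1l1, rose with TCM in IL-12, to 21.9 ± 1.62 CPM against 15.3 ± 0.638 CPM in IL-12 alone (0.53 ± 0.08, adjusted p = 0.00041). Rap1gap itself, the founding relative of Rap1gap2, was at 0.054 to 0.564 CPM on average in every group.

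Of the adaptors upstream, Fyb, which encodes the adaptor ADAP that works with SKAP1 and RIAM, rose with TCM in IL-12 (452 ± 5.68 against 324 ± 13.1 CPM, log2 fold change 0.50 ± 0.06, adjusted p = 8.2e-05 in edgeR) and in IL-2 (487 ± 35.5 against 360 ± 16.9 CPM, 0.43 ± 0.06, adjusted p = 0.00051). Skap1 rose in IL-12 against IL-2 without TCM (356 ± 2.61 against 230 ± 34.8 CPM, 0.61 ± 0.09, adjusted p = 0.00015) and with TCM (353 ± 11.4 against 266 ± 29.6 CPM, 0.41 ± 0.09, adjusted p = 0.0031). Lcp2, the adaptor SLP-76, rose in IL-12 against IL-2 without TCM (0.54 ± 0.07, adjusted p = 3.1e-05), and Plcg1, the phospholipase that makes diacylglycerol, fell without TCM (-0.50 ± 0.06, adjusted p = 3.8e-05) and with it (-0.48 ± 0.06, adjusted p = 5.9e-05). Of the 7 adaptors, IL-12 against IL-2 called 4 higher and 2 lower in the absence of TCM, and 5 higher and 1 lower in its presence, where 45.1% and 39% of all genes were called.

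Of the 8 effectors tested, IL-12 against IL-2 called 2 higher and 3 lower in the absence of TCM (45.1% of all genes called), and 2 higher and 2 lower in its presence (39%). Raph1, which encodes lamellipodin, a relative of RIAM, had 85.6, 81.2 and 84.3 CPM in IL-12 with 80%TCM, against 26.7, 26.8 and 24.0 CPM in IL-2 with 80%TCM (log2 fold change 1.70 ± 0.08, adjusted p = 2.3e-09 in edgeR). It had 74.9, 74.4 and 70.2 CPM in IL-12 alone, against 26.2, 25.6 and 31.4 CPM in IL-2 alone (1.38 ± 0.08, adjusted p = 2.1e-08). The cytokine groups did not overlap in either TCM condition. Ralgds, an exchange factor for Ral, rose in IL-12 against IL-2 without TCM (0.76 ± 0.07, adjusted p = 2.9e-06), and Tiam1, an exchange factor for Rac, fell with TCM in IL-2 (-0.79 ± 0.13, adjusted p = 0.0018). Stk4, the kinase MST1, which acts with RAPL, was not called in any comparison with all libraries in the unblocked edgeR fit. It gained a call in 2 of 22 alternatives for IL-12 against IL-2 with TCM and in 2 of 22 for TCM in IL-12. One of the former left out replicate 3 of IL-2 with 80%TCM (adjusted p = 0.024 in edgeR).

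Of the 7 genes of the integrin activation machinery, 1 was called higher and 2 lower for TCM in IL-12 (29% of all genes called), and 1 higher and 1 lower for IL-12 against IL-2 in either TCM condition (45.1% without and 39% with TCM). Talin 1 (Tln1), which binds integrin tails, had 904 to 1025 CPM in IL-12 with 80%TCM, 963 to 996 CPM in IL-12 alone, 843 to 946 CPM in IL-2 with 80%TCM and 917 to 1015 CPM in IL-2 alone, and was not called in any comparison. Tln2 fell with TCM in IL-2 (1.98 ± 0.409 against 3.84 ± 0.201 CPM, log2 fold change -0.96 ± 0.18, adjusted p = 0.0039 in edgeR). Fermt3, which encodes kindlin-3, the partner of talin in blood cells, rose in IL-12 against IL-2 with TCM (540 ± 14.4 against 441 ± 25.3 CPM, 0.29 ± 0.05, adjusted p = 0.00058) and without it (0.16 ± 0.05, adjusted p = 0.026). The call without TCM was lost on leaving out replicate 3 of IL-2 alone or any library of IL-12 alone (adjusted p = 0.057 to 0.084). Evl, an actin regulator, fell in IL-12 against IL-2 with TCM (-0.38 ± 0.05, adjusted p = 7.8e-05).

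Of the 4 integrin chains, 2 were called higher and 1 lower for TCM in IL-12, against 14.8% and 14.2% of all genes. Itgal, the LFA-1 alpha chain, rose with TCM in IL-12 (884 ± 26.3 against 811 ± 5.61 CPM, log2 fold change 0.14 ± 0.04, adjusted p = 0.026 in edgeR), a call lost without any 1 library other than replicate 3 of either IL-2 group (0.051 to 0.16). Itgb2, the LFA-1 beta chain, rose there too (576 ± 26.7 against 480 ± 5.18 CPM, 0.28 ± 0.08, adjusted p = 0.014), a call lost without replicate 1 or 2 of IL-12 with 80%TCM or replicate 1 of IL-12 alone (0.057 to 0.063). Itgb1, the beta chain of VLA-4, fell in all 4 comparisons, and its lowest mean was 128 ± 1.4 CPM in IL-12 with 80%TCM, against 168 ± 0.893 CPM in IL-12 alone, 231 ± 3.05 CPM in IL-2 with 80%TCM and 315 ± 12.1 CPM in IL-2 alone. Its log2 fold change was -0.38 ± 0.04 for TCM in IL-12 (adjusted p = 5.3e-05 in edgeR) and -0.93 ± 0.04 for IL-12 against IL-2 without TCM (adjusted p = 1.8e-09). Itga4, the VLA-4 alpha chain, fell in IL-12 against IL-2 with TCM (131 ± 7.66 against 215 ± 5.76 CPM, -0.72 ± 0.09, adjusted p = 2.5e-05).

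Markers of other cell types also differed between the cytokines and are given beside these results. The summed level of 3 NK cell markers (Ncr1, Klrb1c and Eomes) was 19.9 to 25.4 CPM in IL-12 with 80%TCM against 50.8 to 68.4 CPM in IL-2 with 80%TCM, and 26.0 to 28.5 CPM in IL-12 alone against 54.5 to 59.9 CPM in IL-2 alone. Nearly all of that sum is Eomes, a factor that CD8+ T cells also express, at 21.7, 27.0, 59.7 and 57.0 CPM on average in IL-12 with 80%TCM, IL-12 alone, IL-2 with 80%TCM and IL-2 alone. Ncr1, at 0.155 to 0.173 CPM, and Klrb1c, at 0.043 to 1.61 CPM on average, were near 0, so the sum shows Eomes and not NK markers as a group. The summed level of 5 B cell markers was 8.50 to 9.58 CPM in IL-12 with 80%TCM against 17.0 to 19.9 CPM in IL-2 with 80%TCM, and 6.30 to 8.06 CPM in IL-12 alone against 16.6 to 20.1 CPM in IL-2 alone. The 5 myeloid markers summed to 0.504 to 2.45 CPM and the 3 erythroid markers to 0.419 to 1.4 CPM over all libraries. The part of other cell types in the cytokine comparisons was not tested.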

How the data were processed

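Total RNA of 12 libraries was made into directional libraries, per the labels' protocols, whose extraction text speaks of livers that no sample label names. The authors deposited gene counts made after alignment with STAR 2.7.7a, per the submitters' processing notes, which also name edgeR and a human genome build although the identifiers are those of mouse. No strand setting was given in the sources used, so overlapping or antisense genes may share reads. The deposited signal per gene and library is the count over a constant of that library, CPM on TMM-scaled library sizes, and gave all levels here.

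The counts were fitted in edgeR 4.0.16 (R 4.3.3) with TMM scaling, filterByExpr (minimum count 10, minimum total 15) and 1 mean per group over all 12 libraries. There were 5 contrasts: TCM in each cytokine, the cytokines in each TCM condition, and TCM in IL-12 minus TCM in IL-2. P-values were adjusted by Benjamini-Hochberg at a threshold of 0.05. The fit was also run on simulated counts with a fixed spread and no outlying replicate. That run does not cover the deviation of replicate 3 in the IL-2 groups. Alternatives were DESeq2 size factors or DESeq2 1.42.0, no filter or a mean of 5 CPM, limma 3.58.1 on log2(CPM + 1) or log2(CPM + 0.1), only the 2 groups compared, replicate blocks, and libraries left out.

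The members and gene lists were chosen with earlier results of these data known. All 10 members are named. Of the 43 pathway genes, the 6 called genes with the smallest adjusted p in each pairwise contrast are named, with every gene called for the difference and 8 anchors (Rasgrp2, Rapgef2, Tln1, Fermt3, Itgal, Itgb2, Skap1, Stk4). Rap1gap and the genes left out by the filter were named after their values were seen. One platelet marker of the list is not reported here.

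Residuals of same-numbered libraries of the IL-2 groups correlated at 0.428, 0.401 and 0.683 for replicates 1, 2 and 3. Replicates 1 and 2 were not told apart (0.452 and 0.414 across), so these values do not show that the numbers pair those libraries. They show only that replicate 3 deviated alike in both IL-2 groups. Between the other groups the correlations of same-numbered libraries were -0.089 to 0.129. Exon lengths came from a mouse annotation given for this work, GENCODE vM21, and promoter windows from RefSeq on GRCm38.p6, which holds none for Rap1a. Counting intervals are not given, since the spread between libraries is larger.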

Additional observations from a re-analysis of the deposited data

Results flagged for a closer look

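The TCM effect differed between the cytokines for 3 of the genes described. For Sipa1l1 the log2 fold change of TCM in IL-12 minus that in IL-2 was 0.51 (adjusted p = 0.0072 in edgeR), and this call held in 21 of 21 alternatives. For Rasgrp1 it was 0.27 (adjusted p = 0.0487), with a TCM effect of 0.13 in IL-12 and -0.15 in IL-2, and the call was lost in 15 of 21 alternatives. For Rasgrp2, which is outside the 10 genes, it was -0.76 (adjusted p = 0.033), lost in 10 of 21.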

How the results depend on the processing

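The number of genes called was 2313 for TCM within IL-2, and it was 587 with only the 2 groups fitted, 4442 with the replicate block in the IL-2 groups and 3936 without replicate 3 of both IL-2 groups. For TCM within IL-12 it was 4617, and 7133 with only the 2 groups and 7332 without replicate 3 of both IL-2 groups. For the difference of the TCM effect it was 251, and 779 with no filter, 550 in DESeq2, 1668 with the replicate block in the IL-2 groups and 2105 without replicate 3 of both. Of the pathway genes, 11 were called for TCM within IL-2, and 5, 21 and 22 under the first 3 of these settings. For the difference 1 pathway gene was called, and 3 with no filter, 2 in DESeq2 and 2 with the replicate block over all libraries, which called 330 of all genes. The block within the IL-2 groups called 8 pathway genes for the difference, and the fit without replicate 3 of both called 10. Leaving out 1 library gave 1292 to 2938 genes for TCM within IL-2, 2931 to 5697 for TCM within IL-12, 5595 to 8153 and 4910 to 6747 for IL-12 against IL-2 without and with TCM, and 105 to 1164 for the difference, and 9 to 17, 13 to 24, 17 to 26, 17 to 23 and 0 to 4 pathway genes. The count for TCM within IL-2 moved most without replicate 1 (1292) or 2 (1432) of IL-2 alone, that for TCM within IL-12 without replicate 1 of IL-12 alone (2931) or 3 of IL-12 with 80%TCM (3067), and that for the difference rose most without replicate 3 of IL-2 with 80%TCM (1164).

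Log2 fold changes near 0 that were not called changed sign. That of Rapgef1 for IL-12 against IL-2 with TCM became -0.019 with the filter at 5 CPM and -0.10 without replicate 3 of both IL-2 groups, where Sipa1 for TCM in IL-2 became -0.096, Rassf5 0.020 for TCM in IL-2 and -0.025 for IL-12 against IL-2 with TCM, and Apbb1ip -0.022 for the last. For IL-12 against IL-2 without TCM, Rassf5 became 0.000244 with no filter and 0.0016 and 0.0016 in limma with 1 and 0.1 added, and Tln1 0.0020, 0.0034 and 0.0034. With 1 library left out the range was -0.12 to 0.060 for Rapgef1 with TCM in IL-2 and -0.099 to 0.056 for it in IL-12 against IL-2 with TCM, -0.074 to 0.13 for Sipa1 with TCM in IL-2, -0.073 to 0.063, -0.060 to 0.014 and -0.022 to 0.11 for Rassf5 with TCM in IL-2 and IL-12 against IL-2 without and with TCM, -0.020 to 0.17 for Apbb1ip in IL-12 against IL-2 with TCM, and -0.10 to 0.0023 and -0.058 to 0.0099 for Tln1 with TCM in IL-12 and IL-12 against IL-2 without TCM. The cause was not tested.

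Over the genes and comparisons reported, 1665 alternative values kept direction and call, 43 gained a call, 80 lost one, 26 changed sign and 7, all of Rap1gap2, moved by more than its error; limma with 1 added gives Rap1gap2 log2 fold changes of -2.99 for TCM in IL-12 and -2.16 in IL-2, since the added value weighs on low levels. Among the 9 genes other than Rap1gap2, the replicate block in the IL-2 groups changed no call other than those given with it above. The block over all libraries changed only Rap1a, which it called for TCM within IL-2 and within IL-12. Fitting only the 2 groups was not run for the difference, which needs all 4. Rap1gap2 in IL-12 with 80%TCM rests on 5 to 12 counts a library, so its fold there is the least precise.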

Other observations

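Ratios of counts within a library do not depend on scaling and were chosen after the values were seen. Sipa1l1 over Sipa1, both GTPase-activating proteins of Rap1, was 3.77, 3.29 and 3.45 in IL-12 with 80%TCM, 2.31, 2.30 and 2.43 in IL-12 alone, 1.28, 1.30 and 1.03 in IL-2 with 80%TCM and 1.0, 1.0 and 1.2 in IL-2 alone. Rasgrp1 over Rasgrp2, exchange factors of one family, was 9.87, 9.61 and 9.36, then 3.62, 3.29 and 3.52, then 1.85, 2.02 and 2.77, then 1.48, 1.52 and 1.82 in the same groups. Rap1a over Rap1b, the closely related GTPases, was 0.548, 0.592 and 0.585, then 0.543, 0.535 and 0.535, then 0.503, 0.496 and 0.488, then 0.467, 0.452 and 0.424. In these 3 ratios the lowest group was IL-2 alone and the highest IL-12 with 80%TCM, and the Sipa1l1 ratio overlapped between the IL-2 groups. A change in a ratio shows that the 2 genes changed unequally, not which of them did.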
